A study of Mus musculus with 8 samples.

Results

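The genes of tight junctions and of epithelial cell polarity were followed through early reprogramming of MEFs. They were chosen by symbol alone (all claudins, occludin and the MARVEL genes, the junctional adhesion molecules *F11r*, *Jam2* and *Jam3* with *Cxadr* and *Lsr*, plaque genes such as *Tjp1*, *Tjp3*, *Cgn* and *Cgnl1*, the Crumbs and Par genes with *Prkci*, and *Llgl1*, *Llgl2* and *Scrib*), which took in 38 of the 18990 genes of the deposited table. The cells were wild-type MEFs of strain BL6 which carried the tet-STEMCCA lentiviral cassette of OCT4, SOX2, KLF4 and c-MYC (OSKM) together with an rtTA lentivirus. They received a siRNA pool against *Ncor1* or against *Oct4* at 40 nM and were then induced with doxycycline, in a medium that also held FBS, chiron (a GSK3 inhibitor), Alk5i (a TGFb inhibitor), ascorbic acid and LIF. RNA-seq was measured from 200 ng of total RNA at days 3 and 6 of reprogramming, and each of the 4 groups has 2 biological replicates. All 4 groups therefore share the cassette, the transfection and the medium. The non-targeting control is not analysed here, and the comparisons set the knockdowns, or the days, against each other.

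Tight junctions are belts of strands that close the gap between neighbouring epithelial cells near their apical side. Claudins build the strands and decide which ions pass, occludin and its relatives with a MARVEL domain sit in the same strands, immunoglobulin-like receptors join them at the junction, and plaque proteins tie them to actin. The Crumbs and Par complexes mark the apical side of the cell, and the Scribble group marks the basolateral side. Fibroblasts are mesenchymal and have no tight junctions, and the gain of epithelial genes is an early step of reprogramming to pluripotency.

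The 8 libraries held 7735742 to 16445192 reads on genes, and 3 reads correspond to 0.174 to 0.380 CPM, the unit of reads scaled by library depth. The non-coding gene *Gm26917* took 15.5% to 29.1% of the reads, with the largest shares at day 6. *Ncor1* had 7.08 and 7.20 log2-cpm in *siNcor1* and 7.82 and 7.94 in the *siOct4*-labelled libraries at day 3, and 7.26 and 7.28 against 7.33 and 7.13 at day 6. It was lower in *siNcor1* than in the *siOct4*-labelled libraries at day 3 (log2 fold change 0.74, adjusted p = 0.0139), and at day 6 the difference was −0.042 (adjusted p = 0.815). *Pou5f1*, which encodes OCT4 and whose cassette and endogenous reads are counted together, had 7.63 and 7.68 against 7.53 and 7.62 at day 3, and 7.55 and 7.32 against 9.45 and 8.97 at day 6. *Pou5f1* was higher in the *siOct4*-labelled libraries than in *siNcor1* at day 6 (1.78, adjusted p = 1.1e-04), and differed by −0.076 at day 3 (adjusted p = 0.941). Without the non-targeting control, these differences cannot show whether the siRNA pool against *Oct4* lowered its target. The paper reports that this target was silenced early and recovered rapidly, and attributes the recovery to overexpression from the cassette. These libraries are therefore named by their label.

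The tests were made with limma on log2-cpm as deposited (log2 of CPM plus a constant of 0.136), with a minimum mean of 1 CPM over the 8 libraries, and were called at an adjusted p under 0.05 (Benjamini-Hochberg over 13866 genes, two-sided). Of the 38 genes, 33 passed the minimum. A gene could pass it through a single group in which it was high, so the counts below describe the tested genes and not the whole set. Where no unit is named, a difference or change below is a log2 fold change (*siOct4*-labelled libraries minus *siNcor1*, or day 6 minus day 3) with its standard error (SE) or adjusted p, and on this scale the changes of low genes are understated. In these bulk samples fewer cells of a type cannot be told apart from less RNA per cell.

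The genes fell far apart in level, as the map of log2-cpm by library shows. *Tjp1*, *Prkci*, *Cxadr*, *Pard3*, *Scrib*, *Marveld1*, *Llgl1* and *Cldn12* had at least 4.43 log2-cpm in every library, whereas *Cldn4*, *Cldn6*, *Cldn7*, *Crb3* and *Cgn* had at most 15 reads in any library of day 3. The 5 genes under the minimum were *Crb1* (at most 11 reads in a library), *Cldn1* (7), *Cldn11* (20), *Cldn20* (7) and *Cldn9* (14), and they were not tested.

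**Figure D1:**
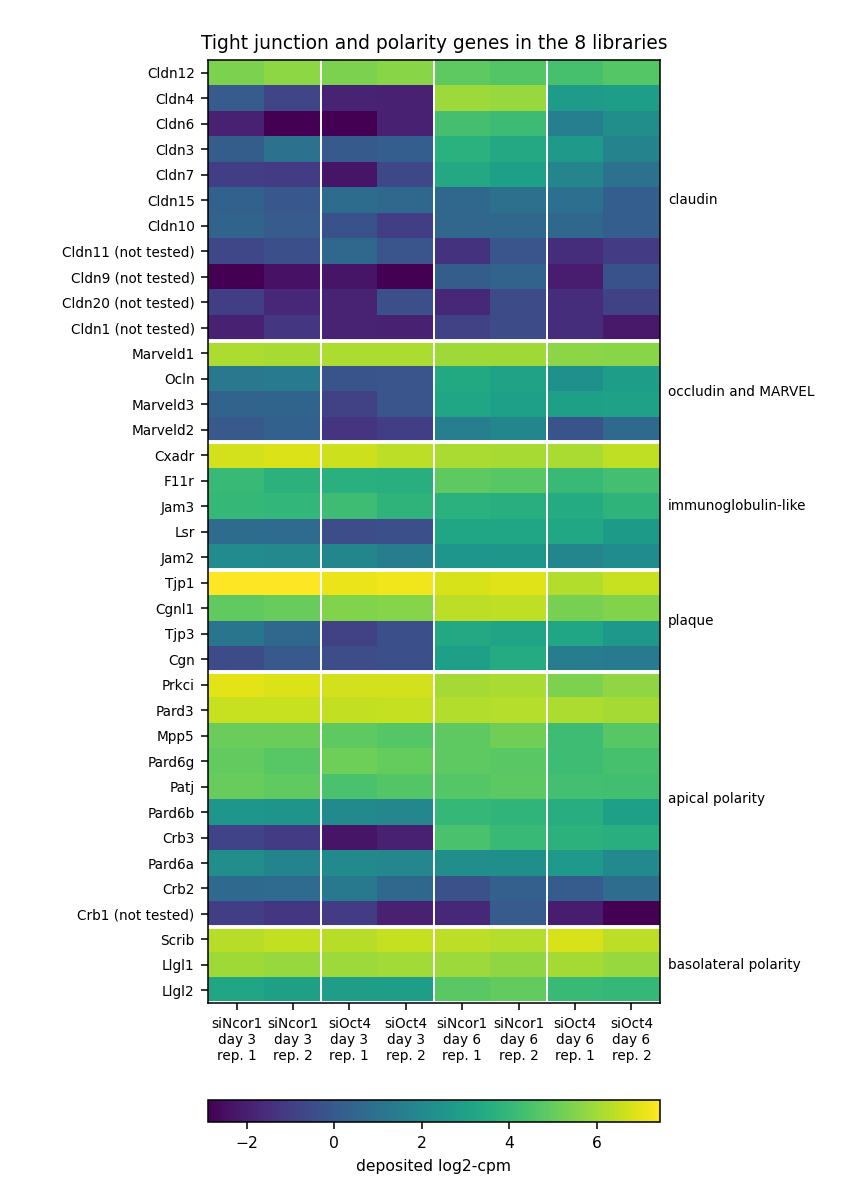
Deposited log2-cpm of the genes of the set (rows, ordered by role and then by mean level) in the 8 libraries (columns), where siOct4 is the label of those libraries and rep. is the replicate. The scale starts at the value of a gene with 0 reads, −2.87, and the change in colour between the day 3 and day 6 libraries falls mostly on Cldn3, Cldn4, Cldn6, Cldn7, Ocln, Marveld2, Marveld3, Lsr, Tjp3, Cgn, Pard6b, Crb3 and Llgl2.

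From day 3 to day 6, more genes of the set were higher than lower, a split that held over the tested genes and not over the well-expressed ones. In *siNcor1*, 15 of the 33 tested genes were higher at day 6 and 4 were lower, while 13.8% of all tested genes were higher and 20.9% were lower (34.8% in either direction). In the *siOct4*-labelled libraries, 15 were higher and 6 were lower, against 22.2% and 30.5% of all tested genes (52.7% in either direction). Restricted to the 17 whose mean reached 10 CPM, 4 were higher and 4 were lower in *siNcor1*, and 3 were higher and 6 were lower in the *siOct4*-labelled libraries. The median log2 fold change was 0.53 in *siNcor1* and 0.32 in the *siOct4*-labelled libraries, while over all tested genes it was −0.068 and −0.079. The libraries of both days did not overlap for 29 and 24 of the 33 genes, where 73.1% and 74.8% of all tested genes did not overlap.

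In both knockdowns, 14 genes were higher at day 6: *Cldn3*, *Cldn4*, *Cldn6*, *Cldn7*, *Ocln*, *Marveld2*, *Marveld3*, *F11r*, *Lsr*, *Cgn*, *Tjp3*, *Crb3*, *Pard6b* and *Llgl2*. They include members of every role. The share of all tested genes higher in both was not counted, and it is at most the 13.8% that were higher in *siNcor1*. The comparisons of days share no library but share an estimate of the spread, so they are not independent tests. *Cldn12*, *Prkci* and *Tjp1* were lower at day 6 in both. *Cgnl1* passed the threshold as higher in *siNcor1* and *Cldn10* in the *siOct4*-labelled libraries, while *Cxadr* passed it as lower in *siNcor1* and *Marveld1*, *Pard3* and *Pard6g* in the *siOct4*-labelled libraries. Leaving out any 1 library gave 17 to 20 calls in *siNcor1* and 19 to 22 in the *siOct4*-labelled libraries. Without *Gm26917* in the library totals, 15 were higher and 5 were lower in the *siOct4*-labelled libraries, and the median of all tested genes moved from −0.079 to 0.055.

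**Figure D2:**
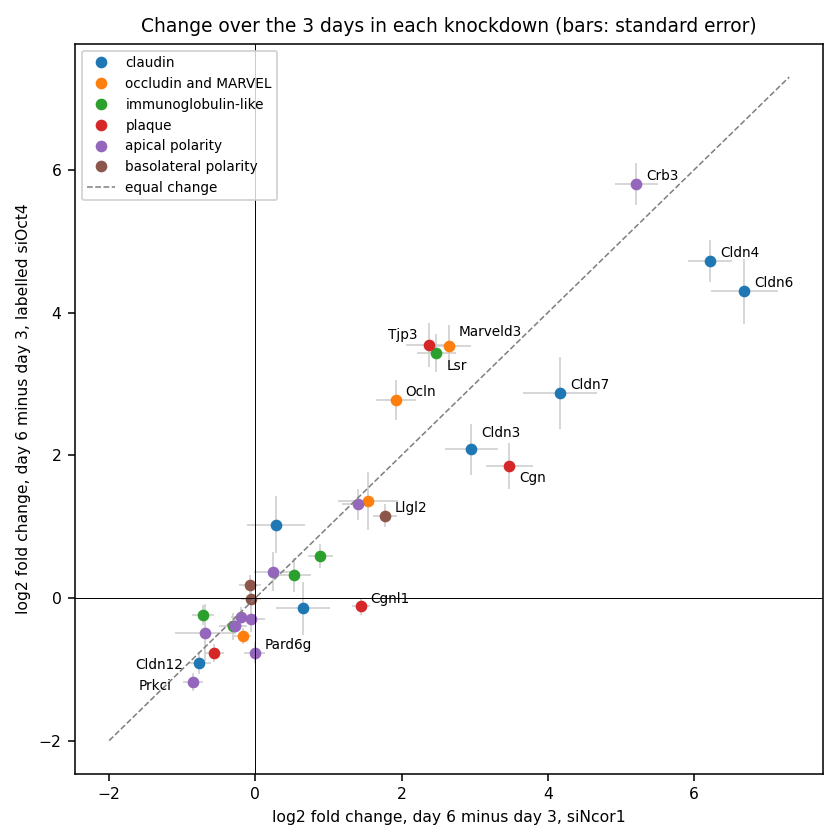
Log2 fold change from day 3 to day 6 of the tested genes in siNcor1 (horizontal) and in the libraries labelled siOct4 (vertical), coloured by role, with bars of 1 standard error. Cldn4, Cldn6, Cldn7, Cldn3, Cgn and Cgnl1 lie below the dashed line of equal change, and Crb3, Tjp3, Lsr, Marveld3 and Ocln lie above it.

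The promoters of genes that were higher at day 6 in both knockdowns are shown because these genes moved together, and because ZEB and SNAI factors, which repress epithelial genes in mesenchymal cells, are known to bind the letters CACCTG. RefSeq (GRCm38.p6) gave windows for 28 of the 38 genes, of which the 250 bases before the start were read on both strands for CACCTG, for the GRHL motif AACCNGTT and for the OCT4 letters TGCAAAT. The letters CACCTG stood in 13 of 40 windows of the set (32.5%) and in 17.2% of all 32851 windows. In the genes higher at day 6 in both knockdowns, a subset picked by calls in these data, they stood in 11 of 17 windows (64.7%). These windows belong to 12 genes, 9 of them with the letters, beside 5252 of 27025 genes over all windows. The median over all windows was 52.4% GC, and the windows printed below for *Lsr*, *Pard6b*, *Cldn4* and *Tjp3* held 66.8%, 77.6%, 62% and 43.2%. Base content was not matched, and its part in these shares was not tested. The GRHL motif stood in 1 of the 40 windows, that of *Cgn*, and in 1.79% of all windows. TGCAAAT stood in 1 of the 40, that of *Patj*, and in 3.56% of all windows. A match is a description of letters, and binding was not measured. In the sequences below, written 5′ to 3′ on the strand of the gene and ending at the base before its start, capitals mark CACCTG or its reverse complement CAGGTG, and in *Cgn* the reverse complement of the GRHL motif. *Lsr* (chr7:30973470-30973719, minus strand), *Pard6b* (chr2:168080754-168081003, plus strand), *Cldn4* (chr5:134946935-134947184, minus strand) and *Tjp3* (chr10:81291582-81291831, minus strand) hold CACCTG, *Cgn* (chr3:94786483-94786732, minus strand) holds the GRHL motif, and *Cldn3* (chr5:134985964-134986213, plus strand), the neighbour of *Cldn4*, holds none of the 3 motifs.
*Lsr*: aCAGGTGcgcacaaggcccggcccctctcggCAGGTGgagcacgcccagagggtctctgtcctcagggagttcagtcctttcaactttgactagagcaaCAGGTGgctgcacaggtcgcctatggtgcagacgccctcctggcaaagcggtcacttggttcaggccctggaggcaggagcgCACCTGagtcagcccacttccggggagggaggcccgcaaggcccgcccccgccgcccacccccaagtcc
*Pard6b*: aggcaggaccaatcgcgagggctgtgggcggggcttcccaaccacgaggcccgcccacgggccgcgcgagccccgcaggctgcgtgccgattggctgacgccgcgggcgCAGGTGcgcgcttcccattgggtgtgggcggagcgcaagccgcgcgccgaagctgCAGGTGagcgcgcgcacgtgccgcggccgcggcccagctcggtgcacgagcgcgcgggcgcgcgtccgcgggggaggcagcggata
*Cldn4*: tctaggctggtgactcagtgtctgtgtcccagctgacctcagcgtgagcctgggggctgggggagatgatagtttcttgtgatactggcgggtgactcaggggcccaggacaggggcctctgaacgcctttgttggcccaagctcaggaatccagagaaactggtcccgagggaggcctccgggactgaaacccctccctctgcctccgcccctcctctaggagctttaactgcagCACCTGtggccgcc
*Tjp3*: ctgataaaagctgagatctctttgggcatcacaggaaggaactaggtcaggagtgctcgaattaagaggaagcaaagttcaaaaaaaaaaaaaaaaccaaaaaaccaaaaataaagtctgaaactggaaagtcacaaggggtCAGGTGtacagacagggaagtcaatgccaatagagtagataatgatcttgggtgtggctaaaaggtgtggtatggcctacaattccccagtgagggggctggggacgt
*Cgn*: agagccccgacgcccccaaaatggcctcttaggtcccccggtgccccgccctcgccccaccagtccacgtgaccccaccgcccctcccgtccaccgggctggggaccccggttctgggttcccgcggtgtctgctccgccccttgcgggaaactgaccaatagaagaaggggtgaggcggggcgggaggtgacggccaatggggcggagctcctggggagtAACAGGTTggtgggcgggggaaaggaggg
*Cldn3*: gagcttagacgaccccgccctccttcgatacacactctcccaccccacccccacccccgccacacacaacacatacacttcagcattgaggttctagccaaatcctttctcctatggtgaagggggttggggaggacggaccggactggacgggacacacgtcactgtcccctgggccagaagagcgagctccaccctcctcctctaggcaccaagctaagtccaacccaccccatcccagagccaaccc
The 4 matches in *Lsr* include 1 that starts 249 bases before its start, the 2 matches in *Pard6b* start 141 and 86 bases before, and the match in *Cldn4* starts 14 bases before.

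Between the knockdowns at day 3, 3 of the 33 tested genes were lower in the *siOct4*-labelled libraries and 0 were higher (limma), beside 1.07% of all tested genes in either direction and 0.692% lower. They were the strand genes *Cldn4* and *Ocln* and the plaque gene *Tjp3*. The unadjusted p was under 0.05 for 11 of the 33 and for 1460 of all 13866 tested genes. The median log2 fold change was −0.24 and that of all tested genes was −0.021, and the libraries did not overlap for 22 of the 33 genes, where 43.4% of all tested genes did not overlap. When any 1 library of day 3 or of *siNcor1* at day 6 was left out, 0 genes passed, while the log2 fold change stayed between −1.41 and −1.53 for *Ocln*, −1.17 and −1.99 for *Cldn4* and −1.24 and −1.75 for *Tjp3*, and the 148 calls over all tested genes fell to between 3 and 98. Without either library labelled *siOct4* at day 6, 5 passed, 4 lower and 1 higher.

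At day 6, 17 of the 33 tested genes were lower in the *siOct4*-labelled libraries than in *siNcor1* and 0 were higher, while 18.6% of all tested genes were lower and 12.1% were higher (30.7% in either direction). They came from every role, with *Cldn4* and *Cldn6* at the largest differences. The median log2 fold change was −0.45, beside −0.025 over all tested genes. Without the library labelled *siOct4* day 6 replicate 2 this median was −0.42, and not all the genes that passed were then lower. The libraries did not overlap for 22 of the 33, against 64.7% of all tested genes. The calls of *Cldn4*, *Cldn6* and *Cgnl1* held in every alternative that tested them. The count was 3 without *siNcor1* day 6 replicate 2, 6 without *siNcor1* day 6 replicate 1 and 10 without the library labelled *siOct4* day 6 replicate 1.

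**Figure D3:**
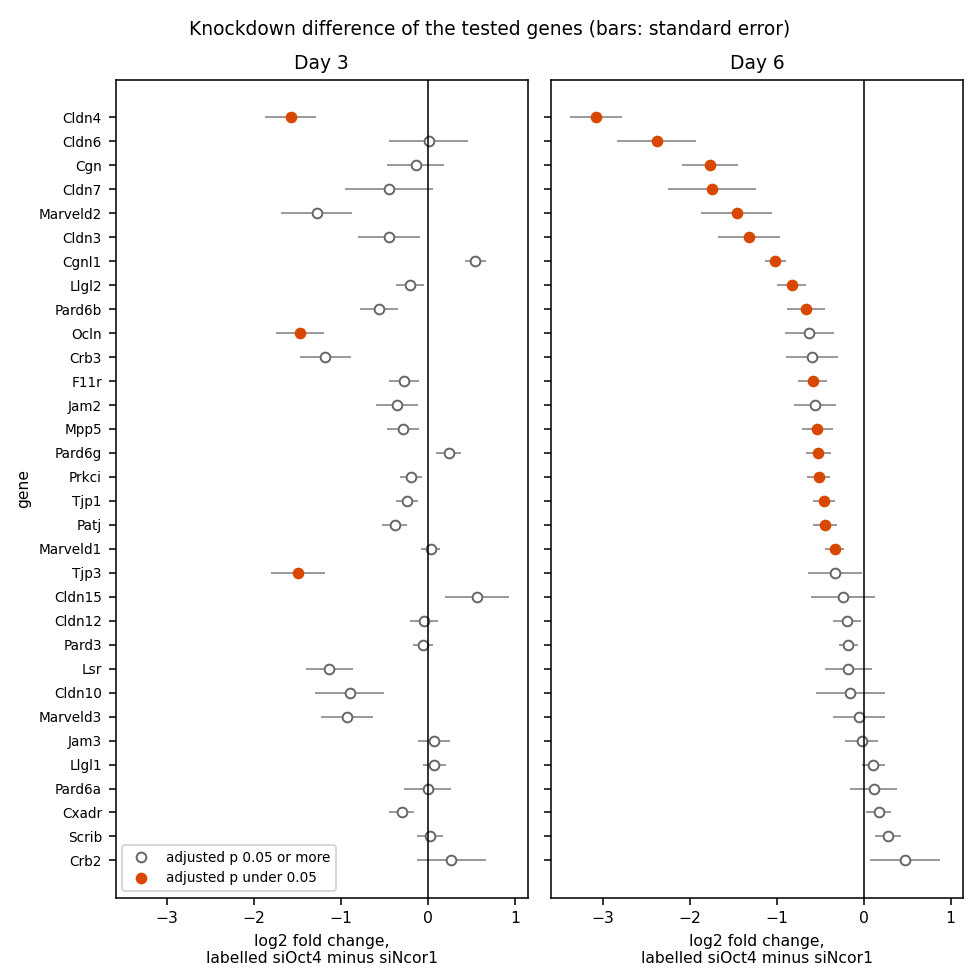
Log2 fold change, libraries labelled siOct4 minus siNcor1, of the tested genes (rows, ordered by the difference at day 6) at day 3 (left) and at day 6 (right), with bars of 1 standard error. Filled points passed the adjusted p of 0.05, which at day 3 are Cldn4, Ocln and Tjp3, and every filled point lies below 0.

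The claudins *Cldn4* and *Cldn6* had the largest increases of the set in *siNcor1* and the largest differences between the knockdowns at day 6. Of the 7 claudins that were tested, 4 were higher at day 6 in both knockdowns, and the same 4 were lower in the *siOct4*-labelled libraries than in *siNcor1* at day 6. Of all tested genes, 13.8% were higher at day 6 in *siNcor1* and 22.2% in the *siOct4*-labelled libraries. Between the knockdowns at day 6, 18.6% were lower, and that comparison uses the same *siNcor1* libraries of day 6. *Cldn4*, a barrier-forming claudin (chromosome 5 from 134945119 to 134946934 of mm10, as are all positions below), had the largest difference at day 6. *Cldn4* had 0.090 and −0.74 log2-cpm at day 3 and 5.94 and 5.86 at day 6 in *siNcor1*, and −1.88 and −1.93 at day 3 and 2.79 and 2.84 at day 6 in the *siOct4*-labelled libraries. The groups did not overlap at either day, and at day 3 the *siOct4*-labelled libraries held 2 reads and 1 read. The difference between the knockdowns was −1.58 (SE 0.30, adjusted p = 0.0268) at day 3 and −3.08 (SE 0.30, adjusted p = 1.7e-04) at day 6, an 8.46-fold lower level at day 6. Over the 2 libraries together, the day 3 ratio of *siNcor1* to the *siOct4*-labelled libraries was 5.20, with an exact 95% interval of 1.57 to 27.1 that covers counting error only. The increase from day 3 to day 6 was 6.22 (SE 0.30, adjusted p = 3.0e-07) in *siNcor1*. In the *siOct4*-labelled libraries it was 52.3-fold by reads (17.5 to 256).

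*Cldn6*, known from embryonic epithelia and pluripotent cells (chromosome 17 from 23679249 to 23682446), was nearly absent at day 3. The reads of *Cldn6* were 2 and 0 at day 3 and 249 and 214 at day 6 in *siNcor1*, and 0 and 1 at day 3 and 27 and 53 at day 6 in the *siOct4*-labelled libraries. By reads, the ratio of day 6 to day 3 was 322 in *siNcor1* (95% interval 88.7 to 2668) and 85.3 in the *siOct4*-labelled libraries (14.9 to 3412), where 1 to 2 reads at day 3 set the width of the intervals. At day 6 it had 4.37 and 4.18 log2-cpm in *siNcor1* and 1.58 and 2.21 in the *siOct4*-labelled libraries, a difference of −2.38 (SE 0.46, adjusted p = 0.00318). No difference was detectable at day 3 at this depth. Its neighbour *Cldn9* ends 137 bases from its end on the other strand and was not tested. In *siNcor1*, *Cldn9* had 0 and 1 reads at day 3 against 12 and 14 later, and in the *siOct4*-labelled libraries 1 and 0 against 1 and 8. By reads *Cldn9* was 36.2 times as high at day 6 in *siNcor1* (5.94 to 1483) and 9.60 times in the *siOct4*-labelled libraries (1.33 to 421).

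*Cldn3* (chromosome 5 from 134986214 to 134987472) lies 39279 bases from *Cldn4* with no coding gene between them, and both are receptors of a clostridial toxin. *Cldn3* had 0.17 and 0.95 log2-cpm at day 3 and 3.70 and 3.33 at day 6 in *siNcor1*, and 0.024 and 0.20 at day 3 and 2.65 and 1.75 at day 6 in the *siOct4*-labelled libraries. Both days were apart in both knockdowns, and the replicates labelled *siOct4* at day 6 were the farthest apart of the 4 pairs. It was higher at day 6 by 2.95 (SE 0.36, adjusted p = 1.4e-04) in *siNcor1* and by 2.09 (SE 0.36, adjusted p = 4.7e-04) in the *siOct4*-labelled libraries. The difference between the knockdowns was −1.32 (SE 0.36, adjusted p = 0.0166) at day 6 and −0.45 (adjusted p = 0.789) at day 3. The day 6 call was lost without *siNcor1* day 6 replicate 1 (adjusted p = 0.110), without *siNcor1* day 6 replicate 2 (0.0620) and without the library labelled *siOct4* day 6 replicate 2 (0.0882).

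*Cldn7*, a claudin of simple epithelia (chromosome 11 from 69964779 to 69967885), followed the same order of groups. *Cldn7* had −0.98 and −1.05 log2-cpm at day 3 and 3.36 and 2.95 at day 6 in *siNcor1*, and −2.29 and −0.64 at day 3 and 1.81 and 1.00 at day 6 in the *siOct4*-labelled libraries. At day 3 it rested on 1 to 6 reads in a library. It was higher at day 6 by 4.17 (SE 0.51, adjusted p = 1.5e-04) in *siNcor1* and by 2.87 (SE 0.51, adjusted p = 5.8e-04) in the *siOct4*-labelled libraries, and the knockdowns differed by −1.75 (SE 0.51, adjusted p = 0.0227) at day 6. That call was lost without *siNcor1* day 6 replicate 1 (adjusted p = 0.130), *siNcor1* day 6 replicate 2 (0.0831) or the library labelled *siOct4* day 6 replicate 2 (0.0977).

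*Cldn12* went the other way. *Cldn12* had 5.40 and 5.67 log2-cpm at day 3 and 4.86 and 4.67 at day 6 in *siNcor1*, and 5.38 and 5.60 at day 3 and 4.43 and 4.73 at day 6 in the *siOct4*-labelled libraries. All day 6 libraries lay below all day 3 libraries. It was lower at day 6 at a log2 fold change of −0.77 (adjusted p = 0.00335) in *siNcor1* and −0.91 (adjusted p = 5.1e-04) in the *siOct4*-labelled libraries, with knockdown differences of −0.044 (adjusted p = 0.964) at day 3 and −0.19 (adjusted p = 0.387) at day 6. The call in *siNcor1* was lost without *siNcor1* day 3 replicate 2 (adjusted p = 0.0517). *Cldn10*, a channel-forming claudin, was low throughout. The reads of *Cldn10* were 20 and 16 at day 3 and 16 and 16 at day 6 in *siNcor1*, and 10 and 3 at day 3 and 13 and 12 at day 6 in the *siOct4*-labelled libraries. Its call as higher at day 6 in the *siOct4*-labelled libraries was close to the threshold, at 1.03 (adjusted p = 0.0468), and was lost in 12 of 18 alternatives, among them each of the 7 leave-outs of a library other than the one labelled *siOct4* day 3 replicate 1. *Cldn15* was called in no comparison, with 11 to 23 reads in a library.

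Per length, the share of each claudin changed as well as their sum. Summed over the 11 claudin genes, the level was 13.3 and 15.3 CPM per kb of exon in *siNcor1* at day 3 and 12.6 and 14.8 in the *siOct4*-labelled libraries. At day 6 it was 70.2 and 63.6 in *siNcor1* and 18.9 and 18.4 in the *siOct4*-labelled libraries. *Cldn12* made up 74.4% to 78.4% of this sum in the day 3 libraries of both knockdowns, 26.7% to 33.9% in the *siOct4*-labelled libraries at day 6, and 9.43% to 9.74% in *siNcor1* at day 6. *Cldn4* made up 47.9% to 50.0% in *siNcor1* at day 6 and a mean of 20.4% in the *siOct4*-labelled libraries, and at most 3.83% at day 3. At day 6 the order of the means in *siNcor1* was *Cldn4* (32.7 ± 1.25 CPM per kb, SD, n = 2), *Cldn6* (11.2 ± 1.06), *Cldn3* (9.06 ± 1.67), *Cldn12* (6.42 ± 0.590) and *Cldn7* (4.55 ± 0.942). *Cldn6* and *Cldn3* lay within the sum of their SDs of each other. In the *siOct4*-labelled libraries the order was *Cldn12* (5.65 ± 0.845), *Cldn4* (3.80 ± 0.110), *Cldn3* (3.72 ± 1.63), *Cldn6* (2.14 ± 0.676) and *Cldn7* (1.35 ± 0.550), where *Cldn4* and *Cldn3* differed by less than the SD of *Cldn3*.

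**Figure D4:**
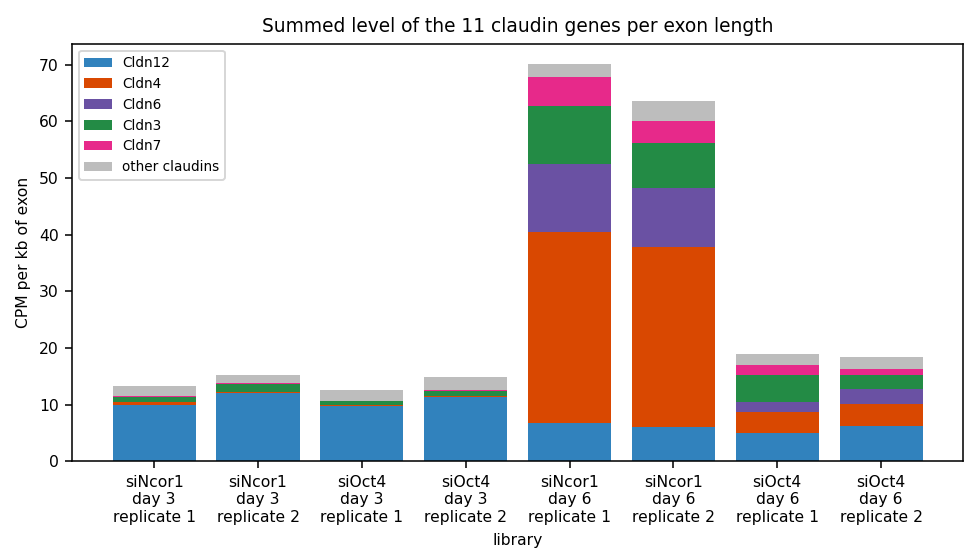
Level per length (CPM per kb of exon, from 0) of the claudin genes in each library, stacked, with Cldn12, Cldn4, Cldn6, Cldn3 and Cldn7 in colour and the other claudins in grey, where siOct4 is the label of those libraries. The siNcor1 libraries of day 6 reach 70.2 and 63.6, with Cldn4 as the largest share, while the libraries labelled siOct4 reach 18.9 and 18.4 and the day 3 libraries hold mostly Cldn12.

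Of occludin and the MARVEL genes, *Ocln* was lower in the *siOct4*-labelled libraries at day 3, and *Marveld1* and *Marveld2* were lower there at day 6. *Ocln* encodes occludin (chromosome 13 from 100496507 to 100552718). *Ocln* had 1.24 and 1.36 log2-cpm at day 3 and 3.40 and 3.05 at day 6 in *siNcor1*, and −0.18 and −0.16 at day 3 and 2.29 and 2.91 at day 6 in the *siOct4*-labelled libraries. No 2 groups overlapped, and the day 3 libraries labelled *siOct4*, with 11 and 6 reads, were the lowest. The knockdown difference was −1.47 (SE 0.28, adjusted p = 0.0273) at day 3, a 2.77-fold lower level, and −0.62 (SE 0.28, adjusted p = 0.111) at day 6, where it was not called (95% interval −1.23 to −0.015). *Ocln* was higher at day 6 by 1.92 (adjusted p = 4.6e-04) in *siNcor1* and by 2.77 (adjusted p = 1.2e-05) in the *siOct4*-labelled libraries. With any 1 library of day 3 or of *siNcor1* at day 6 left out, the adjusted p at day 3 was 0.0564 to 0.295.

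*Marveld2*, tricellulin, which seals the points where more than a pair of cells meet (chromosome 13 from 100595957 to 100616971), lies 43238 bases from *Ocln* with no coding gene between. The reads of *Marveld2* were 14 and 19 at day 3 and 33 and 42 at day 6 in *siNcor1*, and 4 and 3 at day 3 and 7 and 17 at day 6 in the *siOct4*-labelled libraries. In log2-cpm, the *siOct4*-labelled libraries lay below those of *siNcor1* at each day. The difference was −1.46 (SE 0.41, adjusted p = 0.0192) at day 6, and at day 3 it was −1.28 (adjusted p = 0.208) and not called. The day 6 call was lost without *siNcor1* day 6 replicate 1 (adjusted p = 0.0565), *siNcor1* day 6 replicate 2 (0.156) or the library labelled *siOct4* day 6 replicate 1 (0.108). It was higher at day 6 by 1.54 (adjusted p = 0.0126) and 1.36 (adjusted p = 0.0147) in *siNcor1* and in the *siOct4*-labelled libraries. The first of these calls was lost without *siNcor1* day 3 replicate 1 (adjusted p = 0.0817), day 3 replicate 2 (0.0542) or day 6 replicate 2 (0.1001), and the other without the library labelled *siOct4* day 3 replicate 1 (0.0674) or day 6 replicate 2 (0.112).

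*Marveld3* was gained in both knockdowns. *Marveld3* had 0.39 and 0.44 log2-cpm at day 3 and 3.21 and 2.93 at day 6 in *siNcor1*, and −0.88 and −0.16 at day 3 and 2.99 and 3.04 at day 6 in the *siOct4*-labelled libraries. The day 6 groups overlapped, with a difference of −0.053 (adjusted p = 0.911), a 95% interval of −0.70 to 0.60 and a sign that turned with quantile normalization (0.018). At day 3 the *siOct4*-labelled libraries were below those of *siNcor1* at a log2 fold change of −0.93 (adjusted p = 0.208), which was not called. It was higher at day 6 by 2.65 (adjusted p = 9.2e-05) in *siNcor1* and by 3.53 (adjusted p = 3.6e-06) in the *siOct4*-labelled libraries. *Marveld1* was abundant in every group. *Marveld1* had 6.16 and 6.10 log2-cpm at day 3 and 5.96 and 5.94 at day 6 in *siNcor1*, and 6.17 and 6.14 at day 3 and 5.64 and 5.61 at day 6 in the *siOct4*-labelled libraries. The libraries labelled *siOct4* at day 6 were the lowest, at a log2 fold change of −0.33 (adjusted p = 0.0418) from *siNcor1* and −0.54 (adjusted p = 0.00172) from their day 3. The first of these calls was lost in 14 of 19 alternatives, among them each of the 8 leave-outs of a library.

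Among the immunoglobulin-like genes, *F11r* was called at day 6 between the knockdowns and *Lsr* was not. *Lsr* encodes an angulin, which brings tricellulin to the points where cells meet. *Lsr* had 0.75 and 0.72 log2-cpm at day 3 and 3.22 and 3.204 at day 6 in *siNcor1*, and −0.42 and −0.38 at day 3 and 3.32 and 2.76 at day 6 in the *siOct4*-labelled libraries. The day 3 libraries labelled *siOct4* were the lowest and the day 6 groups overlapped. The difference was −1.13 (SE 0.27, adjusted p = 0.0725) at day 3, which was not called, and −0.17 (SE 0.27, adjusted p = 0.653) at day 6 (95% interval −0.76 to 0.41), where the sign turned without the library labelled *siOct4* day 6 replicate 2 (0.11). *Lsr* was higher at day 6 by 2.48 (adjusted p = 7.5e-05) and 3.44 (adjusted p = 2.1e-06) in *siNcor1* and in the *siOct4*-labelled libraries. It shares 946 bases of exon with *Gm4673* on the other strand, and the sources used here do not state whether strand was used in counting.

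*F11r* encodes the junctional adhesion molecule A. *F11r* had 4.06 and 3.75 log2-cpm at day 3 and 4.86 and 4.74 at day 6 in *siNcor1*, and 3.69 and 3.57 at day 3 and 4.05 and 4.37 at day 6 in the *siOct4*-labelled libraries. The *siNcor1* libraries of day 6 were the highest. It was lower in the *siOct4*-labelled libraries at day 6 at a log2 fold change of −0.58 (adjusted p = 0.0227), and higher at day 6 than at day 3 by 0.89 (adjusted p = 0.00225) in *siNcor1* and 0.58 (adjusted p = 0.0126) in the *siOct4*-labelled libraries. Its call between the knockdowns was lost without *siNcor1* day 6 replicate 1 (adjusted p = 0.124), *siNcor1* day 6 replicate 2 (0.0910) or the library labelled *siOct4* day 6 replicate 1 (0.0950), and the call between days in the *siOct4*-labelled libraries without their replicate 2 of day 3 (0.0798) or of day 6 (0.0661).

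*Cxadr*, the receptor of coxsackieviruses and adenoviruses, was the highest of this group per length at day 3. *Cxadr* had 6.74 and 6.90 log2-cpm at day 3 and 6.14 and 6.07 at day 6 in *siNcor1*, and 6.65 and 6.39 at day 3 and 6.10 and 6.46 at day 6 in the *siOct4*-labelled libraries. The *siNcor1* libraries of day 6 lay below those of day 3, with a change of −0.71 (adjusted p = 0.00317). In the *siOct4*-labelled libraries the days overlapped and the change was −0.24 (adjusted p = 0.187), and the difference of these changes was 0.48 (adjusted p = 0.121). It shares 695 bases of exon with *Btg3* on the other strand. *Jam2* (1.48 to 2.57 log2-cpm) and *Jam3* (3.45 to 4.24) were called in no comparison.

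The plaque genes split into those expressed at both days and those gained at day 6. *Tjp3*, the zonula occludens scaffold of epithelial cells (chromosome 10 from 81273207 to 81291581), was gained. *Tjp3* had 1.12 and 0.61 log2-cpm at day 3 and 3.35 and 3.14 at day 6 in *siNcor1*, and −0.88 and −0.38 at day 3 and 3.21 and 2.62 at day 6 in the *siOct4*-labelled libraries. The libraries labelled *siOct4* were the lowest at day 3, with 6 and 5 reads, and at day 6 the groups overlapped. The knockdown difference was −1.50 (SE 0.31, adjusted p = 0.0457) at day 3, a 2.82-fold lower level, and −0.33 (SE 0.31, adjusted p = 0.451) at day 6 (95% interval −1.01 to 0.35). It was higher at day 6 by 2.38 (adjusted p = 2.5e-04) in *siNcor1* and by 3.54 (adjusted p = 4.8e-06) in the *siOct4*-labelled libraries. The day 3 call was lost when any 1 library of day 3 or of *siNcor1* at day 6 was left out, with an adjusted p of up to 0.271.

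*Cgn*, cingulin, which couples the junction to actomyosin (chromosome 3 from 94760069 to 94786492), was gained in both knockdowns and more in *siNcor1*. *Cgn* had −0.53 and 0.0092 log2-cpm at day 3 and 2.95 and 3.48 at day 6 in *siNcor1*, and −0.42 and −0.38 at day 3 and 1.47 and 1.42 at day 6 in the *siOct4*-labelled libraries. The day 3 groups overlapped and the day 6 groups did not. It was lower in the *siOct4*-labelled libraries at day 6 at a log2 fold change of −1.77 (SE 0.32, adjusted p = 0.00259), a 3.40-fold lower level, and this was lost without *siNcor1* day 6 replicate 2 (adjusted p = 0.0519). The change from day 3 to day 6 was 3.47 (adjusted p = 3.1e-05) in *siNcor1* and 1.85 (adjusted p = 5.7e-04) in the *siOct4*-labelled libraries.

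*Cgnl1*, paracingulin, a relative of cingulin that also joins adherens junctions (chromosome 9 from 71626509 to 71771602), was well expressed at both days, with 371 to 1033 reads in a library. *Cgnl1* had 4.92 and 5.03 log2-cpm at day 3 and 6.39 and 6.44 at day 6 in *siNcor1*, and 5.48 and 5.56 at day 3 and 5.31 and 5.49 at day 6 in the *siOct4*-labelled libraries. The libraries labelled *siOct4* lay above those of *siNcor1* at day 3 and below them at day 6. The difference was 0.54 (SE 0.12, adjusted p = 0.0617) at day 3, which was not called, and −1.02 (SE 0.12, adjusted p = 4.1e-04) at day 6, a 2.02-fold lower level. The day 3 difference passed as higher with a replicate block, with libraries centred on the median and without either library labelled *siOct4* at day 6, at an adjusted p down to 0.0176. *Cgnl1* was higher at day 6 in *siNcor1* by 1.44 (SE 0.12, adjusted p = 1.9e-05). In the *siOct4*-labelled libraries the change was −0.12 (adjusted p = 0.435), and its sign turned with quantile normalization (0.053) and with library totals without *Gm26917* (0.017).

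*Tjp1*, a broadly expressed zonula occludens scaffold, was among the highest genes of the set per length at day 3. *Tjp1* had 7.43 and 7.40 log2-cpm at day 3 and 6.79 and 6.92 at day 6 in *siNcor1*, and 7.14 and 7.21 at day 3 and 6.24 and 6.56 at day 6 in the *siOct4*-labelled libraries. *Tjp1* was lower at day 6 in both knockdowns, at a log2 fold change of −0.56 (adjusted p = 0.00604) in *siNcor1* and −0.77 (adjusted p = 4.0e-04) in the *siOct4*-labelled libraries, and lower in the *siOct4*-labelled libraries at day 6 at a log2 fold change of −0.45 (adjusted p = 0.0205). The first call was lost without *siNcor1* day 6 replicate 1 (adjusted p = 0.0658), and the last without *siNcor1* day 6 replicate 1 (0.0557), *siNcor1* day 6 replicate 2 (0.167) or the library labelled *siOct4* day 6 replicate 1 (0.0919).

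**Figure D5:**
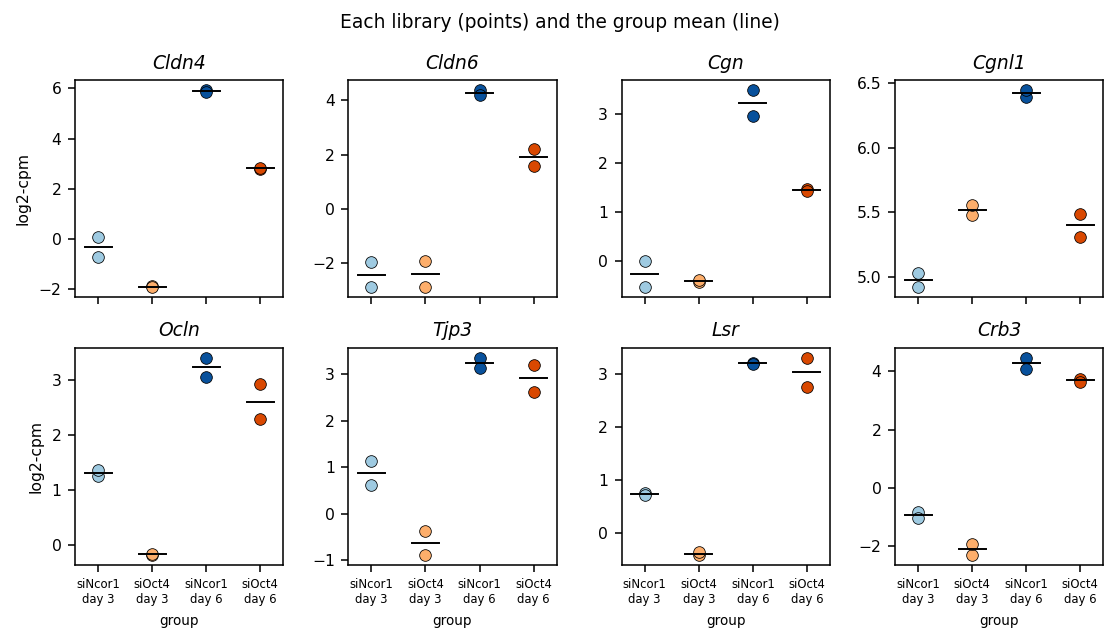
Log2-cpm (each panel with its own axis) of Cldn4, Cldn6, Cgn and Cgnl1 in the top row and Ocln, Tjp3, Lsr and Crb3 in the bottom row, with a point for each library and a line at the group mean, where siOct4 is the label of those libraries. In the top row the groups of day 6 are apart, and in the bottom row the groups of day 3 are apart while Tjp3 and Lsr overlap at day 6.

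Of the apical polarity genes, *Crb3* was gained in both knockdowns and *Prkci* was lowered in both. *Crb3*, the Crumbs protein of epithelial cells, had 14 bases of exon in common with *Dennd1c* on the other strand. The reads of *Crb3* were 7 and 6 at day 3 and 267 and 201 at day 6 in *siNcor1*, and 1 and 1 at day 3 and 126 and 144 at day 6 in the *siOct4*-labelled libraries. All 4 day 6 libraries were far above all day 3 libraries. The change was 5.21 (SE 0.29, adjusted p = 9.4e-07) in *siNcor1*, and by reads it was 144-fold in the *siOct4*-labelled libraries (95% interval 39.5 to 1195). By reads, *siNcor1* had 4.41 times the level of the *siOct4*-labelled libraries at day 3, with an interval that reaches 1 (0.998 to 40.3), and the fitted difference was not called (adjusted p = 0.0905). At day 6 the difference was −0.59 (adjusted p = 0.148), with a 95% interval of −1.24 to 0.051.

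*Pard6b*, 1 of the 3 *Pard6* genes (chromosome 2 from 168081004 to 168101203), binds CDC42 and atypical protein kinase C. *Pard6b* had 2.56 and 2.45 log2-cpm at day 3 and 3.98 and 3.85 at day 6 in *siNcor1*, and 1.999 and 1.88 at day 3 and 3.54 and 2.96 at day 6 in the *siOct4*-labelled libraries. It was higher at day 6 by 1.41 (adjusted p = 7.1e-04) in *siNcor1* and 1.31 (adjusted p = 4.1e-04) in the *siOct4*-labelled libraries. At day 6 it was lower in the *siOct4*-labelled libraries at a log2 fold change of −0.66 (SE 0.22, adjusted p = 0.0396), which was lost in 9 of 18 alternatives, among them the leave-outs of both *siNcor1* libraries of day 3 and of day 6 and of the *siOct4*-labelled libraries day 3 replicate 1 and day 6 replicate 2 (adjusted p of up to 0.210). *Pard6g* had 4.96 and 4.74 log2-cpm at day 3 and 4.88 and 4.79 at day 6 in *siNcor1*, and 5.16 and 5.01 at day 3 and 4.21 and 4.42 at day 6 in the *siOct4*-labelled libraries. *Pard6g* was lowest in the *siOct4*-labelled libraries at day 6, at a log2 fold change of −0.52 (adjusted p = 0.0188) from *siNcor1* and −0.77 (adjusted p = 9.0e-04) from day 3. *Pard6a* was called in no comparison (1.76 to 2.67 log2-cpm).

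*Prkci* encodes an atypical protein kinase C that acts with the Par proteins. *Prkci* had 6.998 and 6.87 log2-cpm at day 3 and 6.06 and 6.10 at day 6 in *siNcor1*, and 6.74 and 6.73 at day 3 and 5.39 and 5.73 at day 6 in the *siOct4*-labelled libraries. The groups of day 6 lay below those of day 3, with changes of −0.85 (adjusted p = 6.6e-04) in *siNcor1* and −1.18 (adjusted p = 2.5e-05) in the *siOct4*-labelled libraries, and the knockdowns differed at day 6 by −0.52 (adjusted p = 0.0126). *Pard3* had 6.55 and 6.56 log2-cpm at day 3 and 6.26 and 6.30 at day 6 in *siNcor1*, and 6.48 and 6.51 at day 3 and 6.15 and 6.05 at day 6 in the *siOct4*-labelled libraries. *Pard3*, the scaffold of the Par complex, was lower at day 6 in the *siOct4*-labelled libraries at a log2 fold change of −0.39 (adjusted p = 0.0101), a call lost without the library labelled *siOct4* day 3 replicate 2 (adjusted p = 0.0637) and with 2 other scalings.

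*Mpp5* and *Patj* encode the partners of Crumbs. *Mpp5* had 5.07 and 5.10 log2-cpm at day 3 and 4.86 and 5.19 at day 6 in *siNcor1*, and 4.88 and 4.71 at day 3 and 4.24 and 4.76 at day 6 in the *siOct4*-labelled libraries. *Patj* had 5.03 and 4.90 log2-cpm at day 3 and 4.70 and 4.83 at day 6 in *siNcor1*, and 4.49 and 4.68 at day 3 and 4.34 and 4.29 at day 6 in the *siOct4*-labelled libraries. Both were lower in the *siOct4*-labelled libraries at day 6, at a log2 fold change of −0.53 (adjusted p = 0.0446) and −0.45 (adjusted p = 0.0303), with adjusted p over single leave-outs of 0.00385 to 0.316 and 0.0390 to 0.204. The call of *Mpp5* was lost in all leave-outs other than those of *siNcor1* day 6 replicate 1 and the library labelled *siOct4* day 6 replicate 2, and that of *Patj* without either *siNcor1* library of day 6 or without the library labelled *siOct4* day 6 replicate 2. The calls of *Prkci* and *Pard6g* at day 6 were lost without either *siNcor1* library of day 6 or without the library labelled *siOct4* day 6 replicate 1, with adjusted p of up to 0.0972 and 0.106. *Crb2* was called in no comparison (−0.33 to 1.29 log2-cpm).

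Of the basolateral genes, *Llgl2* (chromosome 11 from 115824049 to 115855780), the epithelial form of the giant larvae genes, changed and the broadly expressed *Llgl1* and *Scrib* were called in no comparison. *Llgl2* had 3.197 and 2.98 log2-cpm at day 3 and 4.79 and 4.95 at day 6 in *siNcor1*, and 2.90 and 2.88 at day 3 and 4.10 and 3.98 at day 6 in the *siOct4*-labelled libraries. Every day 6 library was above every day 3 library, and *siNcor1* was the highest. The change from day 3 to day 6 was 1.78 (SE 0.16, adjusted p = 2.8e-05) in *siNcor1* and 1.15 (SE 0.16, adjusted p = 1.2e-04) in the *siOct4*-labelled libraries. At day 6 it was lower in the *siOct4*-labelled libraries at a log2 fold change of −0.83 (SE 0.16, adjusted p = 0.00350), a 1.78-fold lower level, which was lost without *siNcor1* day 6 replicate 2 (adjusted p = 0.0536). *Llgl1* lay between 5.72 and 6.05 log2-cpm and *Scrib* between 6.28 and 6.82 over the 8 libraries.

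Whether the knockdown difference itself changed from day 3 to day 6 was tested in the same fit. It changed for 5 of the 33 genes (15.2%), *Cldn6*, *Cgn*, *Cgnl1*, *Cldn4* and *Pard6g*, each toward lower levels in the *siOct4*-labelled libraries at day 6, and for 0 genes the other way, beside 12.9% and 7.77% of all tested genes (20.7% in either direction). The size was −1.56 (SE 0.17, adjusted p = 6.1e-04) for *Cgnl1*, from a positive difference at day 3 to a negative one at day 6. For *Cldn6* and *Cldn4* the day 3 levels lay near the constant of 0.136 CPM, which draws the day 3 difference toward 0. For *Tjp3*, *Lsr*, *Marveld3* and *Ocln*, whose difference was larger at day 3, the change had the opposite sign and was not called, at 1.17 (SE 0.44, adjusted p = 0.0818), 0.96 (SE 0.38, adjusted p = 0.0934), 0.88 (SE 0.42, adjusted p = 0.156) and 0.85 (SE 0.39, adjusted p = 0.147). The count of 5 became 1 without *siNcor1* day 6 replicate 2 or without the library labelled *siOct4* day 3 replicate 2, 2 without *siNcor1* day 3 replicate 2 or *siNcor1* day 6 replicate 1, 3 without the library labelled *siOct4* day 3 replicate 1, and 8 without the one labelled *siOct4* day 6 replicate 2. Of these 8, 6 moved toward lower and 2 toward higher levels, the 2 being *Tjp3* (adjusted p = 0.0360) and *Lsr* (adjusted p = 0.0366).

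Summed markers of epithelial, mesenchymal and other cells differed between these groups, but single markers did not all follow their sum. The summed level of 10 simple epithelial markers, all past the minimum, was 110 to 112 CPM in *siNcor1* and 46.8 to 55.0 in the *siOct4*-labelled libraries at day 3, and 744 to 774 and 368 to 421 at day 6. At day 6 the largest gaps in mean were those of *Krt18* (145 against 17.0 CPM) and *Krt8* (194 against 102). *Esrp1* (19.9 in each) and *St14* (56.9 against 58.9) were not lower in the *siOct4*-labelled libraries, while the other markers were. From day 3 to day 6 *Krt19* changed little (34.2 to 34.3 and 24.0 to 22.3). *Krt7* rose in *siNcor1* (1.62 to 18.5) and fell in the *siOct4*-labelled libraries (1.84 to 1.26), and the others rose in both. The 10 fibroblast markers, all past the minimum, summed to 6266 to 6397 and 8800 to 10354 CPM at day 3, and to 4540 to 4915 and 2496 to 2674 at day 6. In *siNcor1* the lower sum at day 6 came with *Col1a1* (mean 3715 to 1676 CPM) and *Col1a2* (1344 to 886), while the means of the other 8 were higher at day 6, among them *Col3a1* (791 to 1174), *Thy1* (205 to 448) and *Dcn* (27.7 to 158). In the *siOct4*-labelled libraries the largest falls were those of *Col1a1* (6133 to 829) and *Col1a2* (1899 to 489). There the means of *Dcn* (35.5 to 112) and *Lum* (13.8 to 54.4) were higher at day 6. The others were lower, of which *Thy1* (295 to 280) and *Pdgfra* (71.8 to 70.0) changed little. The 10 markers of pluripotent cells, 8 of them past the minimum, summed to 7.61 to 7.95 and 1.42 to 3.67 CPM at day 3, when *Dppa3*, *Dppa4* and *Zfp42* had 0 reads in all 4 libraries and *Lin28a* and *Tdgf1* in the *siOct4*-labelled libraries, and to 115 to 124 and 46.6 to 52.0 at day 6. Of the 8 keratinocyte markers, 3 passed the minimum, and the sum was 7.60 to 9.59 and 10.7 to 11.01 CPM at day 3 and 52.9 to 60.0 and 24.5 to 29.9 at day 6, most of it *Sfn* at day 6, while at day 3 *Krt15* had 0 reads in *siNcor1* and *Krt1* in the *siOct4*-labelled libraries. The part of such cells in the values of the junction genes was not tested. Of 10 endothelial markers, 9 were in the table and 3 passed the minimum, and they summed to 60.8 to 63.7 and 62.0 to 62.7 CPM at day 3 and 37.4 to 42.1 and 32.7 to 37.2 at day 6, when *Emcn* had 0 reads. Of 8 macrophage markers 4 passed the minimum, and they summed to 7.31 to 14.7 CPM over the 8 libraries, and of 8 Schwann cell and oligodendrocyte markers 5 passed it and the sum was 73.3 to 159, the highest in *siNcor1* at day 6.

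Among other genes of junctions and polarity, more were lower than higher at day 6, as over all tested genes. Of 42 such genes (scaffolds of the MAGI, angiomotin and DLG families, ERM proteins, vesicle traffic and others), 41 were in the table and 36 were tested. In *siNcor1*, 3 were higher and 11 were lower at day 6, and in the *siOct4*-labelled libraries 4 were higher and 17 were lower, beside the 13.8% higher and 20.9% lower and the 22.2% and 30.5% of all tested genes, with medians of −0.18 and −0.34, beside −0.068 and −0.079 over all tested genes. Between the knockdowns, 1 was higher in the *siOct4*-labelled libraries at day 3, *Micall2* (0.71, adjusted p = 0.0489). At day 6, 11 were lower and 1 was higher there, 33.3% of the list beside 30.7% of all tested genes, and the median was −0.24. The lower ones were led by *Amot* (−1.28, adjusted p = 3.8e-04), *Amotl2* (−1.21, adjusted p = 2.0e-04), *Dlg3* (−1.01, adjusted p = 7.8e-04) and *Magi3* (−0.88, adjusted p = 0.00211), of which the angiomotins bind the Crumbs partners and regulate YAP. The difference changed from day 3 to day 6 for 10, all toward lower levels, beside 12.9% of all tested genes.

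Of 18 transcription and splicing regulators of epithelial genes, 16 were tested. At day 6, 9 were higher and 2 were lower than at day 3 in *siNcor1*, and 7 were higher and 4 were lower in the *siOct4*-labelled libraries, with medians of 0.97 and 0.50, beside 34.8% and 52.7% of all tested genes called in either direction. *Grhl2*, an activator of junction genes in epithelia, was higher by 4.62 (adjusted p = 2.4e-05) and 4.26 (adjusted p = 8.5e-06), and *Esrp1*, an epithelial splicing regulator that is also among the simple epithelial markers, by 3.04 (adjusted p = 1.9e-05) and 5.05 (adjusted p = 1.4e-07). *Zeb1*, a repressor of epithelial genes, was 1 of the 2 that were lower in *siNcor1* (−0.41, adjusted p = 0.0463, close to the threshold). It was also 1 of the 4 that were lower in the *siOct4*-labelled libraries (−1.56, adjusted p = 6.3e-06). The changes between days of the other repressors on the list are not given here, so *Zeb1* does not stand for them. Between the knockdowns, *Esrp1* (−1.996, adjusted p = 0.00591) and *Tfap2c* (−1.89, adjusted p = 0.0231) were lower in the *siOct4*-labelled libraries at day 3. At day 6, 9 were lower there and 0 were higher (limma), beside 18.6% and 12.1% of all tested genes, with a median of −0.58 and among them *Tfap2c* (−1.41, adjusted p = 0.00981), *Grhl2* (−1.32, adjusted p = 0.0304), *Zeb1* (−0.99, adjusted p = 8.0e-04) and *Snai2* (−0.93, adjusted p = 0.00250), so that both activators and repressors were lower. The difference changed from day 3 to day 6 for 7, beside 20.7% of all tested genes, of which 2 moved toward higher levels in the *siOct4*-labelled libraries, *Esrp1* (2.004, adjusted p = 0.00357) among them.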

How the data were processed

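The 8 libraries of total RNA were depleted of ribosomal RNA by the authors, who aligned the reads with STAR (2.5.2b) to mm10 and deposited log2-cpm values from edgeR (3.20.9) for 18990 genes, per the submitters' processing notes and methods. How reads were counted, and whether strand was used, is not given in the sources used here. The lowest deposited log2 value was −2.87, which is a constant of 0.136 CPM, and with it removed 100% of the values were whole reads within 0.1 read. Depth, ratios and intervals rest on these reads, which cover counting error only.

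Values were tested with limma 3.58.1 in R 4.3.3 (lmFit and eBayes with a trend) over the 4 groups together, for genes whose mean was 1 CPM or more, in 5 comparisons, with Benjamini-Hochberg adjustment over all 13866 tested genes. The scripts were tested on simulated data. Levels per length used the exon lengths of GENCODE M21. Python 3.11.15, scipy 1.17.1 and matplotlib 3.10.9 were used for the rest. Nothing in the labels says that the replicates came from separate embryos, so p-values measure the spread between these samples.

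Genes called in at least 1 comparison were described with every value. Those called at day 3 and the 10 with the largest differences at day 6 were given full statistics, the others were given by range, 1 gene of the set is not reported here and is only in the counts, and from the other lists at most 4 genes a comparison were named. The genes and lists were chosen with earlier results of these data known. Alternatives changed the trend, the scaling, the minimum, the pseudocount, the groups in the fit, a replicate block, a voom fit of the recovered reads, and the libraries.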

Additional observations from a re-analysis of the deposited data

Results flagged for a closer look

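The difference between the knockdowns changed from day 3 to day 6 beyond the spread between replicates for 5 of the 33 tested genes (limma, Benjamini-Hochberg over all tested genes), all 5 toward lower levels in the *siOct4*-labelled libraries. This is 15.2% of the set, beside 20.7% of all tested genes in either direction and 12.9% toward lower levels. With both directions counted together, the set therefore did not change more often than all tested genes, and toward lower levels its share was near theirs. For *Cldn6* the change was −2.39 (SE 0.65, adjusted p = 0.0242), from 0.0078 at day 3 to −2.38 at day 6, and its day 3 values rest on 0 to 2 reads. At such counts the constant of 0.136 CPM holds the day 3 difference near 0, so this change repeats the day 6 difference. For *Cgn* it was −1.63 (SE 0.46, adjusted p = 0.0285), from −0.14 to −1.77. For *Cgnl1* it was −1.56 (SE 0.17, adjusted p = 6.1e-04), from 0.54 to −1.02, and this was the only 1 of the 5 that passed the threshold in each of its 18 alternatives. For *Cldn4* it was −1.50 (SE 0.42, adjusted p = 0.0277), from −1.58 to −3.08, where the day 3 values rest on 1 to 15 reads. For *Pard6g* it was −0.76 (SE 0.20, adjusted p = 0.0240), from 0.24 to −0.52.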

How the results depend on the processing

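Of 78 values of single genes, 65 passed the threshold, and 37 of these passed it in the same direction in every alternative that tested them. At day 3 between the knockdowns, 3 genes of the set became 0 without a trend, with quantile normalization, with a minimum of 10 CPM, with a pseudocount of 1 CPM, with only the groups compared and with voom, where an unadjusted p under 0.05 was given by 11, 8, 3, 9, 13 and 9 genes, and 0 to 5 when 1 library was left out. At day 6, 17 became 11 without a trend, 11 with a minimum of 10 CPM, 10 with only the groups compared, and 3 to 14 with 1 library left out. Between days, 19 in *siNcor1* became 8 with a minimum of 10 CPM (4 higher and 4 lower) and 17 to 20 with 1 library left out, and 21 in the *siOct4*-labelled libraries became 9 (3 higher and 6 lower) and 19 to 22. The 5 genes whose difference changed became 2 with a minimum of 10 CPM, 2 with voom and 1 to 8 with 1 library left out, and the fit with only the groups compared was not run for them since it needs all 4. A minimum of 10 CPM tests fewer genes of the set. Genes that turned direction were not called: *Cgnl1* between days in the *siOct4*-labelled libraries (0.053 with quantile normalization, 0.017 without *Gm26917* in the totals), *Lsr* at day 6 (−0.45 to 0.11 over single leave-outs, 0.11 without the library labelled *siOct4* day 6 replicate 2) and *Marveld3* at day 6 (0.018 with quantile normalization, −0.19 to 0.085 over single leave-outs, 0.085 without *siNcor1* day 6 replicate 1). The cause was not tested.

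Over all genes, 148 calls at day 3 became 43 without a trend, 81 with a minimum of 10 CPM and 3 to 375 with 1 library left out, and 4251 at day 6 became 1398 to 4669, 4819 between days in *siNcor1* became 2360 to 5954, and 2867 changes of the difference became 1009 to 3667. In the *siOct4*-labelled libraries, 42.1% of the calls between days were higher and 52.6% without *Gm26917* in the totals. The labels give no shared origin for a replicate number, so the numbers were not taken as pairs. The correlations of deviations from the group means between libraries of the same replicate number ran from −0.040 to 0.281. The largest was that between the knockdowns at day 6, so a shared origin there is not excluded. With a replicate block, 4, 17, 19, 21 and 5 genes of the set were called in the comparisons at day 3, at day 6, between days in *siNcor1*, between days in the *siOct4*-labelled libraries, and of the change of the difference. At these depths 3 reads are up to 0.380 CPM, which limits *Cldn4*, *Cldn6*, *Cldn7* and *Crb3* at day 3.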
